A study of Rattus norvegicus with 30 samples.

Results

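Livers of rats that had gone through common laboratory handling on 1 day were compared with livers of rats left undisturbed. All animals were female Sprague-Dawley rats, an outbred stock, 10 weeks of age, and RNA of the left liver lobe was measured on Affymetrix Rat Genome 230 2.0 arrays with 1 array per rat. A handled rat (labelled Treated, 24hr) was weighed, held in a Broome restrainer, given water by oral gavage and bled several times from the tail vein, so the effects of these steps cannot be told apart. A control rat (labelled Control, 24hr) went through none of these steps. The comparison holds all 10 rats handled for 1 day and control rats 4 to 10, which makes 17 of the 30 arrays in the series. Control rats 1 to 3 were left out because their transcripts for fat and sterol synthesis differed from those of the other 7 control rats, so the choice of controls rests on measured values. The 10 rats handled for 4 days (labelled 96hr) entered the fit for the estimate of spread, and their own differences from the same controls are given once, near the end. Each rat is an animal of its own, and 1 litter, cage or killing session cannot be told from another with the labels.

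The liver makes most of the proteins of blood plasma, among them the complement cascade, which coats and lyses microbes, and the acute phase proteins, whose output is raised by inflammatory signals and by glucocorticoids released under stress. It is also the main site of sterol and fatty acid synthesis, 2 pathways switched by the SREBP transcription factors and by feeding. Many of its metabolic genes follow the circadian clock, a loop in which BMAL1 and CLOCK drive genes such as Dbp and Nr1d1 that peak at the opposite time of day. Handling is known to raise stress hormones in rodents, and feeding, time of day and stress can all move these genes.

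The values that set the choice of controls were far apart and are given here with no test. Fasn, fatty acid synthase, had an intensity of 0.322 to 0.793 (median 0.484) in control rats 4 to 10, 0.684 to 1.21 (median 0.975) in the rats handled for 1 day, and 17.3, 28.7 and 10.4 in control rats 1 to 3. Scd, the stearoyl-CoA desaturase that makes monounsaturated fat, spanned 1.08 to 8.69 in the 7 kept control rats, 0.486 to 4.37 in handled rats and 41.6 to 53.5 in the 3 rats left out. The reverse held for Cpt1a, which admits fatty acids into mitochondria for oxidation: 22.9 to 32.4 in kept controls, 21.3 to 33.4 in handled rats and 1.70 to 4.24 in the rats left out. The 3 left-out rats thus lay outside both other groups for all 3 genes, whereas handled and kept control rats overlapped. In all, the left-out rats lay wholly above or wholly below control rats 4 to 10 in 4311 of 31042 probe sets (13.9%), 1973 above and 2338 below. Those probe sets are called divergent below. Leaving out control rats 1 to 3 bears directly on them. Their differences between handled and kept control rats are therefore described with no test of their own. They do enter the counts over all probe sets and over gene lists, also those at an unadjusted p.

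**Figure D1:**
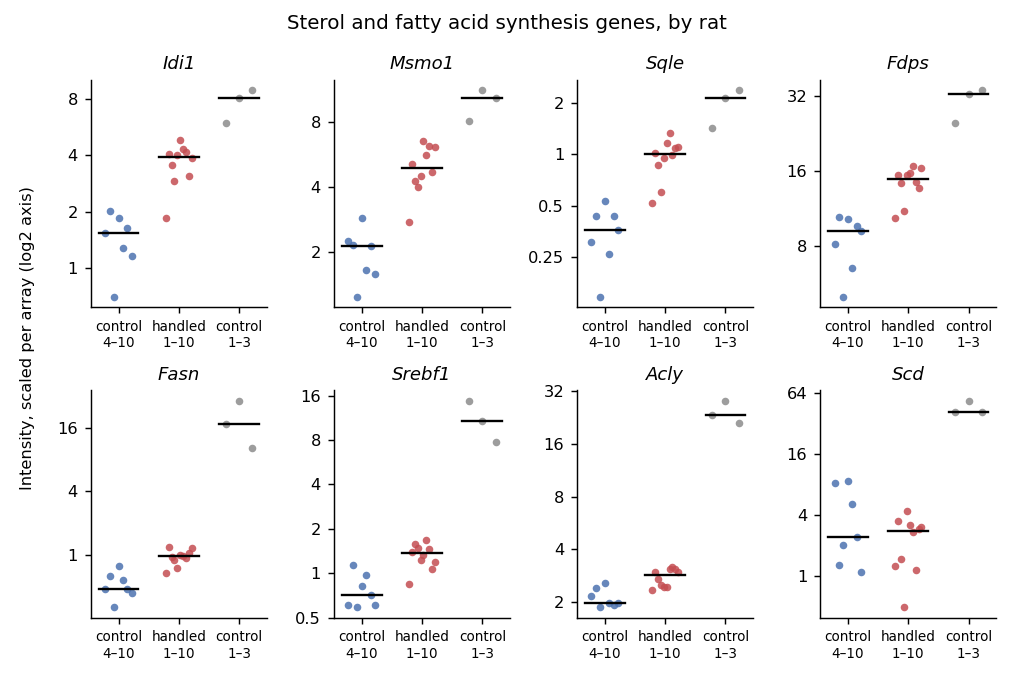
Intensity (vertical log2 axes, scaled per array) of 8 sterol and fatty acid synthesis genes in control rats 4 to 10, the 10 rats handled for 1 day and control rats 1 to 3; each point is 1 rat and each bar a group median. Control rats 1 to 3 lie above all other rats in all 8 panels, and Scd of handled rats (0.486 to 4.37) lies within or below the span of control rats 4 to 10 (1.08 to 8.69).

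Intensities are the deposited values, which average 1.01 on each array and have a median of 0.122 over the 17 arrays. Any 2 of these arrays correlated at r = 0.965 to 0.976 on the log2 scale, and no 2 arrays were identical. The liver label fitted its markers. Albumin (Alb) lay at 59.7 to 72.5 in kept controls and 56.3 to 73.9 in handled rats, and none of 16 hepatocyte markers measured passed the limma test (1 had an unadjusted p under 0.05). A measure of RNA quality did differ: for Gapdh, the 3′ control probe set over the 5′ one, as a log2 ratio, averaged 0.754 in handled and 0.644 in kept control rats (exact permutation test, two-sided, p = 0.0039), with 7 of 10 handled rats above every control. The same ratio for beta-actin averaged 2.85 against 2.61 (p = 0.042, same exact test), with 0 of 10 handled rats above every control. The part of this gap in the results that follow was not tested beyond the values given with the Gapdh ratio as a covariate.

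After 1 day of handling, 102 of 31042 probe sets (0.329%) passed the test (limma, Benjamini-Hochberg adjusted p under 0.1 over all probe sets), 61 higher (0.197%) and 41 lower (0.132%). Differences are handled minus control throughout. By these labels most genes that the study names as raised by handling ran lower, and those it names as lowered ran higher, and both lists kept these directions with all 10 control rats (median log2 differences -0.21 and 0.22). Those signs oppose the study's. The study kept all its samples and named genes altered after either period of handling. It reports that 3 control samples had slightly different profiles, without numbering them, and found no quality measure that called for leaving them out. Why the directions differ was not tested. The called probe sets changed by a median of 1.51-fold (range 1.15 to 3.14). At an unadjusted p under 0.05 there were 2640 probe sets (8.50%). Of the 102, 72 were divergent probe sets (70.6% of those called and 1.67% of those divergent), and 45 of these were higher and 27 lower after handling. The other 30, of 26731 probe sets in which control rats 1 to 3 did not stand apart (0.112%), are the tested result: 16 were higher (0.0599%) and 14 lower (0.0524%). They had a median change of 1.47-fold (range 1.15 to 2.38), 15 exceeded 1.5-fold and 4 exceeded 2-fold. The adjustment ran over all 31042 probe sets, divergent ones included. Its limit of 0.1 thus holds for the 102 calls together and not for the 30 alone. Of these 30, 19 carry 1 gene symbol, 9 higher and 10 lower, and 11 carry none or several and are not named.

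The 9 named genes that rose were Oplah, Nat8, C4bpa, C5, Fgl1, Plekhb1, Acsm3, Tbl1xr1 and Adam18. Oplah, 5-oxoprolinase, which returns 5-oxoproline to glutamate in the glutathione cycle, ranged from 1.01 to 1.28 (median 1.21) in kept control rats and from 1.34 to 2.09 (median 1.67) in handled rats. Every handled rat lay above every kept control rat and above the left-out rats too (0.995 to 1.09). The log2 difference was 0.53 (SE 0.10, adjusted p = 0.036), a 1.44-fold rise in 10 of 10 rats, and it stayed past the threshold whichever rat was left out (adjusted p 0.020 to 0.084). Groups without overlap were found in 34 of all probe sets (0.11%) and in 10 of those not divergent (0.0374%). Nat8, an N-acetyltransferase that completes mercapturic acids from glutathione conjugates, ranged from 0.686 to 1.50 (median 1.28) in kept controls and from 1.19 to 3.13 (median 2.38) in handled rats. Of the handled rats 8 lay above every kept control, and the left-out rats (1.13 to 1.20) lay among the controls. Nat8 rose by 0.82 on the log2 scale (SE 0.18, adjusted p = 0.061).

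C4bpa, the alpha chain of the C4b-binding protein that restrains the classical complement pathway, ranged from 25.1 to 29.8 (median 27.4) in kept controls and from 28.0 to 38.2 (median 32.8) in handled rats. All but 1 handled rat exceeded every kept control, although the left-out rats spanned 24.6 to 33.7. The log2 difference was 0.29 (SE 0.06, adjusted p = 0.036). C5, the component cleaved to the anaphylatoxin C5a and to C5b, which starts the membrane attack complex, ranged from 8.74 to 11.2 (median 9.50) in kept controls and from 9.86 to 14.1 (median 12.4) in handled rats. The groups overlapped in the lower handled rats, 7 of 10 lay above every kept control, and the left-out rats lay at 8.55 to 9.83. C5 rose by 0.35 (SE 0.08, adjusted p = 0.061). With the Gapdh ratio as a covariate the differences were 0.26 for C4bpa and 0.32 for C5, and neither passed (limma adjusted p = 0.21 and 0.30). Fgl1, the secreted hepatocyte protein fibrinogen-like 1, ranged from 29.3 to 39.4 (median 35.0) in kept controls and from 38.2 to 48.8 (median 43.8) in handled rats, with 8 of 10 above every kept control. Its log2 difference was 0.33 (SE 0.07, adjusted p = 0.052).

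Among the other genes that rose, Plekhb1, a pleckstrin homology protein of cell membranes, went from 1.47 to 2.15 (median 1.91) in kept controls to 1.85 to 4.21 (median 3.09) in handled rats. All but 1 handled rat lay above every kept control, and the left-out rats lay below most controls at 0.795 to 1.54. The log2 difference was 0.71 (SE 0.15, adjusted p = 0.048). Acsm3, a mitochondrial medium-chain acyl-CoA synthetase, rose by 0.80 (SE 0.18, adjusted p = 0.069), from 0.0992 to 0.162 (median 0.120) in kept controls to 0.144 to 0.308 (median 0.222) in handled rats. Control rat 2, left out, had more Acsm3 than any of them, at 0.477. Tbl1xr1, a subunit of nuclear corepressor complexes, rose by 0.39 (adjusted p = 0.061) in 1 of its 5 probe sets, whereas its brightest probe set differed by 0.25 (adjusted p = 0.37). Adam18, a sperm surface protein of the disintegrin family, rose by 1.07 (adjusted p = 0.045) from a dim signal, 0.0149 to 0.0424 in kept controls and 0.0329 to 0.0838 in handled rats, below the median intensity of the arrays. In all, 9 of the 30 probe sets lay below that median.

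**Figure D2:**
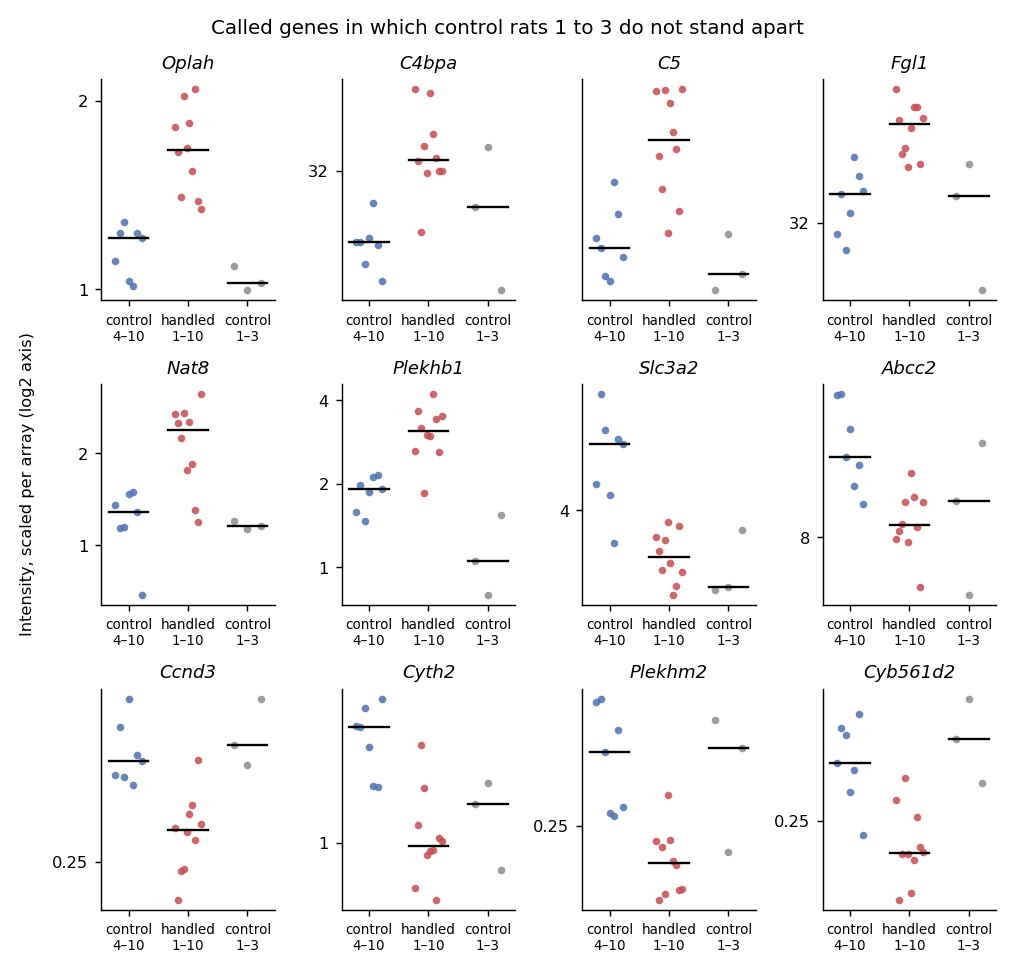
Intensity (vertical log2 axes, scaled per array) of 12 genes that passed the test in control rats 4 to 10, the 10 rats handled for 1 day and control rats 1 to 3; each point is 1 rat and each bar a group median. Oplah alone of the 12 shows no overlap between handled rats (1.34 to 2.09) and control rats 4 to 10 (1.01 to 1.28), and Slc3a2 of control rats 1 to 3 (3.09 to 3.76) lies with the handled rats.

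The 10 named genes that fell were Slc3a2, Abcc2, Ccnd3, Plekhm2, Cyth2, Cyb561d2, Slirp, Zfpm1, Pask and Tsga13. Slc3a2, the heavy chain shared by several amino acid transporters of the cell surface, ranged from 3.59 to 5.84 (median 4.96) in kept controls and from 3.04 to 3.86 (median 3.43) in handled rats. Of the handled rats 6 lay below every kept control, and the left-out rats, at 3.09 to 3.76, had levels like those of handled rats. Slc3a2 fell by 0.45 on the log2 scale (SE 0.09, adjusted p = 0.045), and with all 10 control rats the log2 difference was -0.29 (adjusted p = 0.35). Abcc2, the canalicular pump that exports conjugated bilirubin and glutathione conjugates into bile, ranged from 9.15 to 14.3 (median 11.1) in kept controls and from 6.54 to 10.4 (median 8.40) in handled rats. The left-out rats spanned 6.34 to 11.7, across both groups. Abcc2 fell by 0.44 (SE 0.10, adjusted p = 0.075), the difference with all 10 controls was -0.32 (adjusted p = 0.35), and the call was lost when any 1 of 13 of the 17 rats was left out.

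Ccnd3, cyclin D3, which partners CDK4 and CDK6 in G1, ranged from 0.311 to 0.400 (median 0.334) in kept controls and from 0.224 to 0.335 (median 0.274) in handled rats. Only handled rat 9, at 0.335, reached the control range, and the left-out rats lay within it (0.330 to 0.400). Ccnd3 fell by 0.33 (SE 0.07, adjusted p = 0.061). Plekhm2, an adaptor that links lysosomes to kinesin, fell by 0.44 (SE 0.09, adjusted p = 0.050), from 0.257 to 0.364 in kept controls to 0.201 to 0.274 in handled rats, 9 of which lay below every kept control. Cyth2, an exchange factor for ARF GTPases, fell by 0.24 (SE 0.05, adjusted p = 0.075), from 1.10 to 1.28 to 0.908 to 1.18, and Cyb561d2, a cytochrome b561 family protein, by 0.46 (SE 0.10, adjusted p = 0.061), from 0.237 to 0.377 to 0.184 to 0.295. In each of these 3 genes most handled rats lay below the kept controls.

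The remaining falls were in dim probe sets or were not shared by other probe sets of the gene. Slirp, a mitochondrial RNA-binding protein that stabilises mitochondrial mRNA with LRPPRC, fell by 0.45 (adjusted p = 0.067) in a probe set at 0.121 to 0.175 in kept controls and 0.0822 to 0.131 in handled rats. Its other probe set, about an order of magnitude brighter with a control median of 1.92, differed by 0.09 (adjusted p = 0.71). Zfpm1, a cofactor of GATA transcription factors, fell by 1.06 (adjusted p = 0.050) in 1 probe set, and a second of like intensity differed by 0.01 (adjusted p = 0.99). Pask, a nutrient-sensing kinase, fell by 1.14 (adjusted p = 0.081) and Tsga13, a testis-associated gene, by 0.73 (adjusted p = 0.075). Both lay far below the median intensity, Pask at 0.0321 to 0.0867 in kept controls and 0.0163 to 0.0524 in handled rats, Tsga13 at 0.0198 to 0.0320 and 0.0142 to 0.0214.

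The promoters of the genes that passed the test, 250 bases before to 50 after the start of the gene, were read from RefSeq sequences of build GRCr8, which covered 6 of the 9 genes that rose and all 10 that fell. They were searched on both strands for the E-box CACGTG, to which BMAL1 and CLOCK bind, for the antioxidant response element core TGACNNNGC of NRF2, for the glucocorticoid response element, for the cyclic AMP response element TGACGTCA and for the CCAAT box. The antioxidant core was found in Nat8 and Plekhb1 (2 of 6) and in Cyb561d2 and Abcc2 (2 of 10), against 12.2% of 27457 promoters. The E-box was found in Slirp alone (1 of 10, and 0 of 6 among genes that rose), against 6.65%. The cyclic AMP and the glucocorticoid elements were found in none of the 16, and in 1.91% and 0.422% of all promoters. CCAAT was found in 1 of the 6 and 4 of the 10, against 37.7%. The stretches around the matches that lie before the start are printed 5′ to 3′ along the gene, with the matched letters in capitals, since they show which genes hold these letters.
Nat8 (chr4:119837960-119838008, minus strand): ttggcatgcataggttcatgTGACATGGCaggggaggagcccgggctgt
Plekhb1 (chr1:164425230-164425278, minus strand): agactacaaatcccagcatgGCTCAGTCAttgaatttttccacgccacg
Cyb561d2 (chr8:117094479-117094527, minus strand): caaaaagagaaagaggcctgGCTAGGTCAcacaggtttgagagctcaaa
Slirp (chr6:112819505-112819550, plus strand): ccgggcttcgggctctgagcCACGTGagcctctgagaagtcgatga
In Nat8 the match begins 224 bases before the start and reads as written, in Plekhb1 and Cyb561d2 it begins 86 and 141 bases before and lies on the other strand, and in Slirp it begins 159 bases before. With so few promoters these shares are a description.

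Complement genes stood mostly on the high side. Of 29 measured, 2 rose, the C4bpa and C5 described above, and none fell. Over the list 19 differences were above 0, the median log2 difference was 0.07, and over all 14217 genes, each with 1 probe set, 45.1% were above 0, the median was -0.02, and 35 rose (0.246%) and 27 fell (0.19%). An unadjusted p under 0.05 was found for 1421 of all these genes (10.0%), 558 higher and 863 lower, and the counts of unadjusted p for the lists that follow are to be read beside that share. The summed intensity of the list was 438.8 to 461.2 in kept controls and 449.5 to 514.8 in handled rats, 9 of which lay above every kept control. The next members by p did not pass the test. C9, which forms the membrane pore, lay at 37.6 to 43.4 in kept controls and 42.0 to 51.6 in handled rats (log2 difference 0.18, adjusted p = 0.23), and Mbl1, a mannose-binding lectin, at 4.70 to 7.45 and 6.43 to 8.93 (0.25, adjusted p = 0.31). The C1q chains, made by Kupffer cells, differed by -0.07 (C1qa), -0.06 (C1qc) and less than 0.01 (C1qb). C4bpa and C5 are among the genes the study itself picked on these rats, so their lead in the list is not independent evidence.

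Among 26 acute phase proteins 1 rose, Fgl1, and 21 lay above 0, with a median of 0.04. Orm1, alpha-1-acid glycoprotein, spread from 9.95 to 29.3 (median 19.5) in handled rats against 10.3 to 14.6 (median 12.9) in kept controls. Of the handled rats 8 were higher than every kept control, yet left-out rats reached 27.2 and the log2 difference of 0.60 did not pass (adjusted p = 0.21). A2m, alpha-2-macroglobulin, the classical acute phase protein of the rat, was dim at 0.0602 to 0.172 in kept controls and 0.0997 to 0.592 in handled rats (1.10, adjusted p = 0.28). Haptoglobin (Hp, 0.07), fibrinogen gamma (Fgg, 0.05), hemopexin (Hpx, 0.08) and Crp (-0.07) moved little. Coagulation factors numbered 19, none passed in limma, 0 had an unadjusted p under 0.05, 15 lay above 0 and the median was 0.04. Across these lists of plasma proteins most differences were thus above 0 and small.

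Glutathione and NRF2 genes went both ways. Of 37 measured, 2 rose (Oplah and Nat8) and 1 fell (Abcc2), 22 lay below 0 and the median was -0.03. An unadjusted p under 0.05 was found for 9 of them, 2 higher and 7 lower. The transferases Gstm4 and Gstm1 differed by -0.33 (adjusted p = 0.23) and -0.34 (adjusted p = 0.40), and glutathione synthetase Gss by -0.33 (adjusted p = 0.41). Gclc, the rate-limiting subunit of glutathione synthesis, differed by -0.01, Hmox1, heme oxygenase, by -0.06, and Nqo1 by -0.03. These 3 genes are common reporters of NRF2 activity, which was itself not tested.

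Genes of protein synthesis and cell division lay on the low side without any call. Of 42 cytosolic ribosomal protein genes 40 were below 0, with a median of -0.10, and 20 had an unadjusted p under 0.05, all lower. Their summed intensity was 802.4 to 847.8 in kept controls and 729.6 to 793.5 in handled rats, so the groups did not overlap. The left-out rats, at 747.3 to 789.8, lay with the handled rats and wholly below the kept controls. The sum was thus divergent in the sense used above, and it was not tested. Of the 42 genes, 15 were in divergent probe sets. Rpl14, for example, lay at 13.1 to 14.9 in kept controls and 11.4 to 13.3 in handled rats (-0.14, adjusted p = 0.33). Of 38 cell division genes 32 lay below 0 (median -0.17), and of 24 DNA repair genes 18 (median -0.09). An unadjusted limma p under 0.05 was found for 3 of the first and 6 of the second. Pcna, the sliding clamp of DNA replication, lay at 2.24 to 2.38 in kept controls and 1.89 to 2.21 in handled rats. All 10 handled rats lay below all kept and left-out rats (2.35 to 2.64), but the log2 difference of -0.17 did not pass (adjusted p = 0.39). Apex1, the abasic site endonuclease of base excision repair, lay at 0.718 to 0.907 and 0.512 to 0.811 (-0.33, adjusted p = 0.16).

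**Figure D3:**
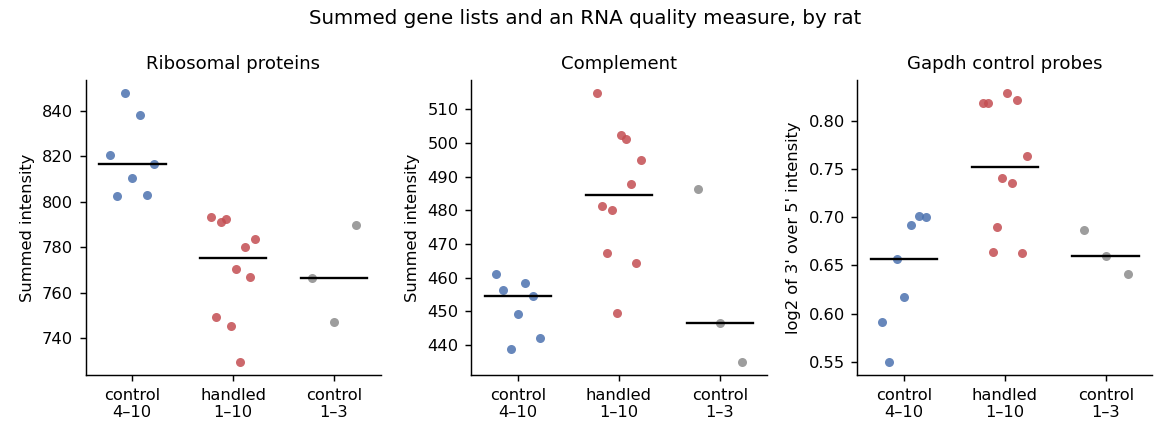
Summed intensity of 42 cytosolic ribosomal protein genes, summed intensity of 29 complement genes, and the log2 ratio of 3′ to 5′ intensity of the Gapdh control probe sets, in control rats 4 to 10, the 10 rats handled for 1 day and control rats 1 to 3; each point is 1 rat, each bar a group median, and the vertical axes do not start at 0. Ribosomal sums of handled rats (729.6 to 793.5) lie below those of control rats 4 to 10 (802.4 to 847.8) and overlap those of control rats 1 to 3 (747.3 to 789.8).

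Glucocorticoid-induced, immediate early and chaperone genes gave no call in limma. Of 24 glucocorticoid-induced genes none passed, 4 had an unadjusted p under 0.05 and the median was -0.04. Of 29 immediate early genes none passed, 7 had an unadjusted p under 0.05 and 21 lay below 0, with Nr4a1, an orphan nuclear receptor induced by many stimuli, at 0.0637 to 0.216 in kept controls and 0.0621 to 0.0964 in handled rats (-0.70, adjusted p = 0.29). Of 48 heat shock and endoplasmic reticulum chaperones none passed, 7 had an unadjusted p under 0.05 and 36 lay below 0, and Ddit3, the transcription factor CHOP of the unfolded protein response, lay at 0.305 to 0.708 and 0.217 to 0.353 (-0.44, adjusted p = 0.21). Cdkn1a, the cell cycle inhibitor p21, had a difference of 2.15 (SE 0.59), with 0.0401 to 0.306 in kept controls and 0.0755 to 1.07 in handled rats. It is a divergent probe set, with 0.350 to 0.882 in the left-out rats, and its second probe set differed by 0.74.

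The largest set of differences was in sterol synthesis, and all of it is description. Idi1, isopentenyl diphosphate isomerase, lay at 0.704 to 2.03 (median 1.53) in kept controls, 1.84 to 4.85 (median 3.94) in handled rats and 5.97 to 8.92 in left-out rats, and its second probe set had the same order. Msmo1, methylsterol monooxygenase, lay at 1.24 to 2.87, 2.77 to 6.54 and 8.12 to 11.3 in the same groups, and Sqle, squalene epoxidase, at 0.148 to 0.533, 0.517 to 1.33 and 1.43 to 2.37. Nearly all handled rats therefore sat between kept and left-out control rats for these 3 genes. Fdps, which makes farnesyl diphosphate, did so too, at 5.01 to 10.4, 10.4 to 16.7 and 24.9 to 33.8. All 20 measured genes of the list were divergent, all 20 lay above 0, and the median log2 difference was 0.37. With all 10 control rats that median was 0.01. Over 22 fatty acid synthesis genes, 21 of them divergent, 15 lay above 0 and the median was 0.10, or -0.49 with all 10 controls. Taken against all 10 controls the log2 difference of Fasn was -0.64 in place of 0.88, and that of Srebf1, the gene of SREBP-1, -0.36 in place of 0.79. Acly, ATP citrate lyase, changed likewise from 0.38 to -0.67 and Acss2, an acetyl-CoA synthetase, from 0.46 to -0.27. The direction for these 4 genes thus turns on the 3 left-out rats.

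Most promoters of the sterol genes held the CCAAT box, the site of NF-Y, which works beside SREBP. Of 16 sterol synthesis genes with a listed promoter 13 held CCAAT on either strand (81.2%), against 10 of 17 clock genes (58.8%) and 37.7% of all promoters, and none held the sterol element spelled TCACNCCAC, which 1.13% of all promoters held. Stretches with these boxes are shown for 4 of the genes that led the list, with each CCAAT or its complement ATTGG in capitals.
Idi1 (chr17:66547535-66547610, minus strand): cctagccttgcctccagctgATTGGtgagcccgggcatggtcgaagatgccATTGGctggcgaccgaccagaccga
Fdps (chr2:176804877-176804966, minus strand): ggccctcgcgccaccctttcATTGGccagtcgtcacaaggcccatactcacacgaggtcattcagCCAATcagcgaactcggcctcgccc
Msmo1 (chr16:29746920-29747069, plus strand): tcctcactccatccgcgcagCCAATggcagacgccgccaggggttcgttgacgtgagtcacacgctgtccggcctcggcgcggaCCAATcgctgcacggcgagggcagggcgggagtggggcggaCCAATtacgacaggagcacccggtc
Hsd17b7 (chr13:84722755-84722950, minus strand): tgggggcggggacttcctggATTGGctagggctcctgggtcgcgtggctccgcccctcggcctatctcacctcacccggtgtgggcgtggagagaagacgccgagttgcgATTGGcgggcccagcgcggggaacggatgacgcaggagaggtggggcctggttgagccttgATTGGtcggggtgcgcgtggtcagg
Idi1 and Fdps hold 2 boxes and Msmo1 and Hsd17b7 hold 3 within the 250 bases before the start. Hsd17b7, a reductase of sterol synthesis, lay at 0.432 to 0.667 in kept controls and 0.751 to 1.49 in handled rats, without overlap.

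Of 21 clock genes measured 12 were in divergent probe sets, among them the 6 described here with no test, and over the list 10 lay above 0 and 11 below. Handled and kept control rats differed in the middle of their ranges for these genes, and the ranges overlapped for all 6. Bmal1 lay at 0.183 to 0.294 (median 0.223) in kept controls, 0.148 to 0.605 (median 0.465) in handled rats and 0.634 to 0.824 in left-out rats. Dbp, which peaks when Bmal1 is low, ran the other way at 0.880 to 2.13 (median 1.23), 0.233 to 2.34 (median 0.425) and 0.128 to 0.162. For these 2 genes handled rats 9 and 10 were the exceptions among the handled, with Bmal1 at 0.311 and 0.148 and Dbp at 0.947 and 2.34. Handled rats 1 to 8 had Bmal1 from 0.426 to 0.605 and Dbp from 0.233 to 0.555. Per3, a period gene, showed the same split, at 0.289 and 0.638 in handled rats 9 and 10 and 0.0726 to 0.132 in the other handled rats, with 0.200 to 0.458 in kept controls. Nr1d1 split otherwise. Handled rat 7, at 0.606, lay with rats 9 and 10 (0.660 and 0.937) inside the range of kept controls (0.507 to 0.977). Log2 differences were 0.85 for Bmal1, 0.74 for Hlf, 0.92 for Cry1, -1.42 for Dbp, -1.21 for Nr1d1 and -1.30 for Per3. The labels give no clock time of killing, and the part of these clock differences in the other results was not tested. Without handled rats 9 and 10, an alternative chosen after seeing the data, 133 probe sets passed, 46 of them not divergent, and 21 of the 30 remained.

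**Figure D4:**
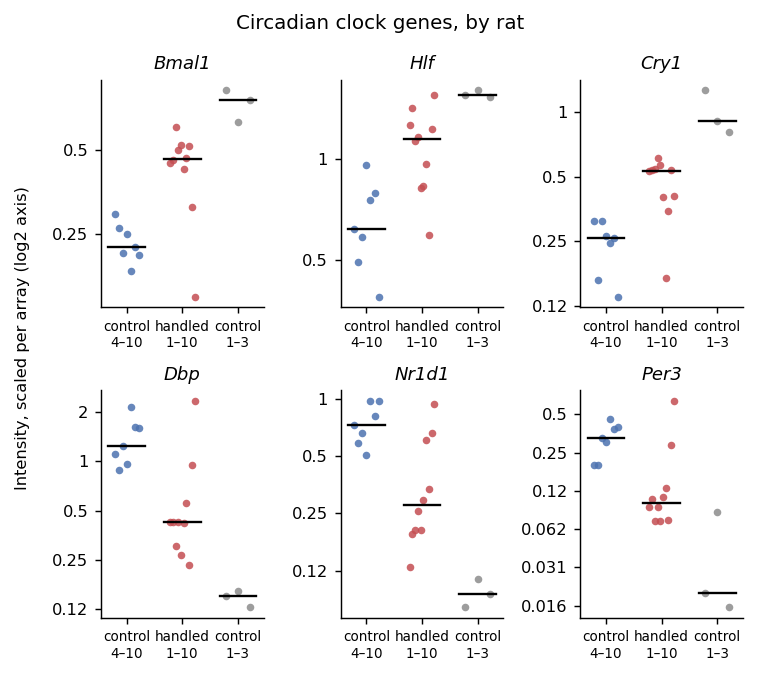
Intensity (vertical log2 axes, scaled per array) of 6 clock genes in control rats 4 to 10, the 10 rats handled for 1 day in the order of their numbers from left to right, and control rats 1 to 3; each point is 1 rat and each bar a group median. Most handled rats lie between both sets of control rats for Bmal1, Dbp and Nr1d1. The last handled rat, rat 10, lies within the range of control rats 4 to 10 for Nr1d1 (0.937) and just beyond its far side for Bmal1 (0.148) and Dbp (2.34). For Per3, handled rats 3, 5 and 8 (0.0728, 0.0726 and 0.0732) lie within the range of control rats 1 to 3 (up to 0.0851). Rat 10 (0.638) lies above control rats 4 to 10 (up to 0.458).

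Some further genes in divergent probe sets are given as levels, with no test. Asl, argininosuccinate lyase of the urea cycle, lay at 18.0 to 24.1 (median 22.1) in kept controls, 12.4 to 18.8 (median 13.9) in handled rats and 4.76 to 6.86 in left-out rats, a log2 difference of -0.56, and its second probe set differed by -0.65. With all 10 control rats the difference of the first was 0.02. Sds, serine dehydratase, a fasting-induced enzyme, differed more (-2.19) but spread widely, from 3.25 to 14.0 in kept controls and from 0.571 to 9.90 in handled rats. Ctsl, the lysosomal protease cathepsin L, lay at 38.4 to 45.1, 32.8 to 37.9 and 18.2 to 28.4 in kept, handled and left-out rats, without overlap, and Casp6, caspase 6, at 2.37 to 2.74, 1.51 to 2.37 and 1.06 to 1.24. Crat, carnitine acetyltransferase, broke the order: handled rats (2.29 to 3.08) lay above kept controls (1.61 to 2.19) and left-out rats (0.413 to 1.10) below them. Clpx, the ATPase of a mitochondrial protease, also stood apart from this order, with handled rats at 5.30 to 8.33, kept controls at 4.57 to 5.12 and left-out rats at 6.31 to 6.61, inside the handled range.

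Markers of other cells gave no call in limma. None passed among the measured markers of erythroid cells (19), neutrophils (11), B cells (8), T and NK cells (23), stellate cells (21), Kupffer cells (15), bile duct epithelium (13) or sinusoidal endothelium (18). An unadjusted p under 0.05 was found for 3 of the stellate, 2 of the bile duct and 1 each of the erythroid, neutrophil and endothelial markers, and for 0 of the others. Summed erythroid intensity was 19.1 to 31.0 in kept controls and 19.5 to 33.9 in handled rats, and summed Kupffer intensity 44.4 to 67.0 and 45.2 to 72.7. The groups overlapped for both. Stellate cell markers leaned up, 19 of 21 above 0 with a median of 0.12, led by Pdgfrb (0.35, 8 of 10 handled rats above every kept control, in a divergent probe set). Their summed intensities overlapped almost wholly, at 18.0 to 27.6 and 19.9 to 28.4. In whole liver, fewer cells of a type and less RNA per cell cannot be told apart. Of 21 iron genes none passed, 4 had an unadjusted p under 0.05, and Tfr2, the transferrin sensor of hepatocytes, lay at 7.10 to 7.95 in kept controls and 7.71 to 9.26 in handled rats (0.20), in a divergent probe set. Of 42 cytochrome P450 genes none passed, 6 had an unadjusted p under 0.05, and the nearest of the drug-metabolising forms, Cyp1a2, lay at 19.0 to 25.9 and 20.4 to 34.9 (0.32, adjusted p = 0.23).

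Immune and energy genes gave no call in limma either. Of 32 interferon-stimulated genes none passed and 3 had an unadjusted p under 0.05, and of 21 genes of MHC class I and II, which present antigen, none passed and 0 did. Of 45 cytokine, chemokine and adhesion genes none passed, 34 lay below 0 (median -0.12) and 2 had an unadjusted p under 0.05, 1 higher and 1 lower. The lower was Il1r1, the interleukin 1 receptor, at 3.82 to 5.21 in kept controls and 2.58 to 4.71 in handled rats (-0.41), a divergent probe set with 2.00 to 2.79 in the left-out rats. The higher was Cxcl12, a chemokine that holds leukocytes in tissues, at 15.2 to 20.8 in kept controls and 19.4 to 24.9 in handled rats (0.20, adjusted p = 0.42). Of 68 respiratory chain and ATP synthase genes none passed and 2 had an unadjusted p under 0.05, and of 48 proteasome genes none passed and 4 did. The 34 genes of fatty acid oxidation form a list that the choice of controls used. Of these 34, 20 were in divergent probe sets, so the list is given with no test. Over the list 25 lay above 0 and the median was 0.05. Acsl1, a long-chain acyl-CoA synthetase, lay at 33.8 to 38.1 in kept controls and 37.8 to 40.3 in handled rats (0.12).

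**Figure D5:**
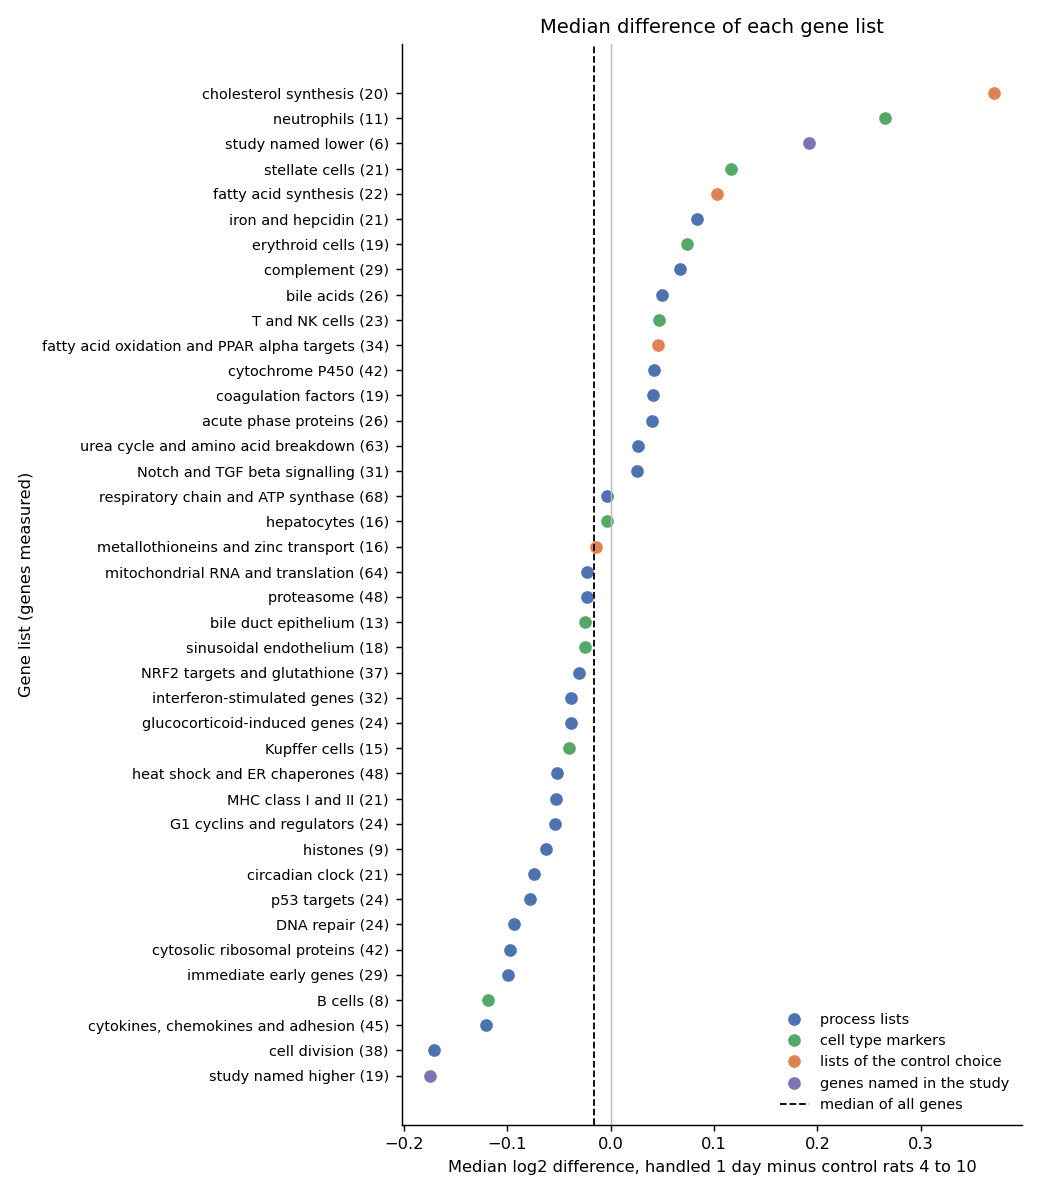
Median log2 difference (horizontal axis, handled for 1 day minus control rats 4 to 10) of each of 40 gene lists, with the number of genes measured in brackets; the dashed line marks the median of all 14217 genes (-0.02). Cholesterol synthesis (0.37), a list that the choice of controls used, lies farthest right, and the genes the study named as raised (-0.17) and cell division genes (-0.17) lie farthest left.

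The genes the study names as responding to handling were few among the calls. Of 19 measured that it names as raised, 1 passed the test, Ccnd3, which fell, and 18 lay below 0 (median -0.17). Of 6 that it names as lowered, 2 rose, C4bpa and C5, and all 6 lay above 0 (median 0.19). These lists were chosen on the same rats, so their direction is not independent evidence. Their summed intensity overlapped for the first list, at 25.2 to 28.2 in kept controls and 22.6 to 26.8 in handled rats, and not for the second, at 95.4 to 106.9 and 108.1 to 131.4.

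Rats handled for 4 days, labelled 96hr and compared with the same 7 control rats, gave values that can be set beside these but share their controls. Per the study, rats handled for 4 days were killed on a later day than the controls. Day of killing and days of handling thus cannot be told apart in their differences. C4bpa differed from the controls by 0.29 after 1 day and 0.32 after 4 days (adjusted p = 0.013), C5 by 0.35 and 0.37 (0.031), and Fgl1 by 0.33 and 0.31 (0.047). Oplah differed by 0.53 and 0.40 (0.094), Abcc2 by -0.44 and -0.57 (0.013) and Slc3a2 by -0.45 and -0.44 (0.033). Other genes had smaller values at 4 days: Ccnd3 differed by -0.33 and -0.06 (0.83), Slirp by -0.45 and -0.14 (0.66) and Adam18 by 1.07 and 0.43 (0.48). The difference between 1 and 4 days was not tested here.

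The 30 tested probe sets held their direction with all 10 control rats and with the Gapdh ratio as a covariate. Their calls did not all hold. With the replicate number as a block 0 passed, with all 10 controls 15, with the 17 arrays alone 15 and with the covariate 2. Acsm3 was 1 of these 2 (limma adjusted p = 0.031), whereas Abcc2 (0.32) and Adam18 (0.17) did not pass with the covariate. Of the 30, 4 passed whichever rat was left out, and Oplah was the only named gene among them. Of the 17 rats, the number whose omission lost the call was 2 for C4bpa, 8 for Nat8, 9 for C5, 9 for Ccnd3 and 11 for Acsm3. The count of calls was lowest without control rat 10, at 29, of which 8 were among the 30, and without control rat 6, at 33, of which 7 were among the 30.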

How the data were processed

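The deposited values are linear probe set intensities of Affymetrix Rat Genome 230 2.0 arrays, 1 array per rat, and each array has a mean near 1. Per the methods, the authors checked the arrays in GCOS and computed ratios in Rosetta Resolver. How probes were summarised and scaled is not given in the sources used here, and no detection calls or scan batches were used. Of 31099 probe sets, 57 Affymetrix controls were set aside and 31042 tested. GEO's platform annotation gave 20826 probe sets 1 symbol, 436 several and 9780 none, and 20758 of the first matched RefSeq genes.

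Log2 intensities, with no offset or filter, were fitted in limma 3.58.1 (R 4.3.3; lmFit and eBayes, two-sided) with 3 groups, control rats 4 to 10 and the rats handled for 1 and 4 days, which left 24 residual degrees of freedom. P-values were adjusted by Benjamini-Hochberg over all 31042 probe sets, with calls at an adjusted p under 0.1. Levels are given as lowest, median and highest. Gene lists used 1 probe set per gene, the brightest over the 17 arrays, and were described by counts and medians. Genes named were the 12 with the smallest p in each direction, the called genes in which control rats 1 to 3 did not stand apart, and leading list members. The last but one of these sets, and the division of probe sets by control rats 1 to 3, were chosen after seeing the data. The comparison, its controls and the lists were chosen with earlier results of these data known. P-values for single measures came from exact permutation over rats (scipy 1.17.1). Scripts were tested on simulated data. The alternatives were other samples, scaling, offsets, weights, covariates, tests and thresholds, and leaving out each rat. The number of arrays limits the precision. Probe sets of 1 gene that disagreed are named as such.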

Additional observations from a re-analysis of the deposited data

Results flagged for a closer look

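A test for 1 rat far from the rest of its group was run on 78 sets of values, each of 1 gene in 1 group, and 4 stood out; about 1 in 20 such sets would do so by chance. Idi1 in handled rat 1 was 1.84 against 2.90 to 4.85 in the other handled rats. Acsl3, a long-chain acyl-CoA synthetase, was 0.120 in control rat 6 against 0.210 to 0.297 in the other kept control rats. The called probe set of Tbl1xr1 was 0.523 in handled rat 2 against 0.361 to 0.426 in the other handled rats. Nat8 was 0.686 in control rat 10 against 1.14 to 1.50 in the other kept control rats. Its call was lost on leaving out any 1 of 8 of the 17 rats, control rat 10 among them.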

How the results depend on the processing

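Calls depended on the processing more than directions did. For 54 called probe sets of 48 genes (the genes named by rule and the called members of the lists), 1563 values were had under the alternatives: 1090 kept direction and call, 467 kept direction and lost the call, and 6 reversed, all with all 10 control rats: Fasn -0.64, Acly -0.67, Srebf1 -0.36, Acss2 -0.27, Asl 0.018 (its brighter probe set) and Ctsl 0.013. In order of total, higher, lower and not divergent, against 102, 61, 41 and 30, the counts of calls were as follows. With all 10 control rats 28, 16 and 12 passed (23 not divergent), with array weights 163, 96, 67 and 54, with an intensity trend 225, 119, 106 and 86, with the Gapdh ratio as a covariate 32, 25, 7 and 5, without the dimmest 40% of probe sets (fewer tested) 243, 130, 113 and 90, and at an adjusted p under 0.05 39, 30, 9 and 10. The methods' t-test at the same adjusted threshold gave 190, 80, 110 and 78 (42.1% higher against 59.8%), the exact rank-sum test 129 with 77 lower, and the 17 arrays alone 70 with 24 lower. Leaving out handled rats 9 and 10, chosen after seeing the data, gave 46 not divergent. Other scalings (quantile 105, median centring 94), an offset of 0.05 (147) and the beta-actin ratio (129) stayed within 1.5 times the total. The cause of these changes was not tested.

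Leaving out each rat gave 29 to 113 calls, 24 to 76 higher, 4 to 44 lower and 8 to 37 not divergent. Totals below 68 came without control rats 4 (51), 5 (46), 6 (33), 9 (46) and 10 (29) and handled rats 2 (61), 3 (61), 4 (66), 7 (48) and 8 (53). With the replicate number as a block 2 probe sets passed, 2 higher and 0 lower, 0 of them not divergent, and 2626 had an unadjusted p under 0.05. The labels do not say whether the numbers pair the rats. Deviations of same-numbered rats correlated at -0.04 to 0.11, and 2 of 7 control rats were closest to their own number. So few pairs cannot decide whether the rats were paired. Of 1239 list medians 8 moved by more than their error, 4 with all 10 controls.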

Other observations

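Besides Oplah, 9 probe sets that were not divergent had no overlap between handled and kept control rats, and 5 of them carry 1 gene symbol. Zdhhc5, a palmitoyltransferase, lay at 0.695 to 0.813 in kept controls and 0.612 to 0.694 in handled rats (log2 difference -0.21, limma adjusted p = 0.14). Hnrnpa3, an RNA-binding protein of the spliceosome, lay at 8.59 to 9.41 and 6.88 to 8.41 (-0.21, adjusted p = 0.16), and Ttc27 at 0.423 to 0.491 and 0.353 to 0.419 (-0.22, adjusted p = 0.26). Ccar1, a coactivator of nuclear receptors, lay higher, at 2.32 to 2.68 and 2.69 to 3.24 (0.19, adjusted p = 0.36). Pcna, given above, is the other. None of these 5 passed the test, and they were chosen after their values were seen.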
